A study of Mus musculus with 6 samples.

Results

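The nuclear-encoded subunits of respiratory complexes II to V were followed in mouse liver RNA as a set of 39 genes, out of 16123 genes in the deposited expression table. The members were picked by gene symbol, and they comprised 4 subunits of complex II, 9 of complex III, 11 of complex IV and 15 of complex V. Of these, 38 were listed under the expected symbol, and Atp5f1 was listed as Atp5pb, a synonym in the RefSeq annotation. Subunits encoded on mitochondrial DNA were not analysed here.

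The study compared livers of exercised mice with livers of sedentary mice, 3 libraries in each group. Exercised mice ran for 6 weeks, 22 km per mouse by the labels, and were killed 24 h after the last training. Sedentary mice did no treadmill training. All livers came from healthy adult mice perfused with saline, with no strain or sex given in the labels. Each library is a bulk preparation of whole liver tissue, in which fewer cells of a type and less RNA per cell cannot be told apart.

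The respiratory chain of the inner mitochondrial membrane passes electrons from food to oxygen and uses the energy to pump protons. Complex II oxidises succinate and hands its electrons to coenzyme Q, complex III moves them to cytochrome c, and complex IV gives them to oxygen. Complex V, the ATP synthase, lets the protons flow back through a rotating ring and makes ATP. Liver cells are rich in mitochondria and use this ATP for glucose synthesis, urea synthesis and fat metabolism. Nuclear genes encode all of complex II and most subunits of the others, and their promoters are known for sites of the factors NRF1, GABP (an ETS family factor) and YY1.

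Stretches upstream of 5 transcription starts are shown because they include members with and without those sites, and members that did and did not pass the test. They come from RefSeq on GRCm38.p6, read 5′ to 3′ on the gene's strand, and end at the base before the annotated start. Capitals mark matches to GCGCA-N-GCGC, with any base at N (NRF1), or to CCGGAAG (ETS), searched on both strands, so that an ETS match on the other strand reads CTTCCGG. The Sdha stretch (minus strand, chr13:74350241-74350340) holds 3 NRF1 matches. The Atp5c1 stretch (minus strand, chr2:10080433-10080492) holds 1 NRF1 match and lies upstream of 1 of its 2 listed starts. The 60 bases upstream of the other Atp5c1 start (chr2:10080511-10080570, not shown) hold no match. The Uqcrh (minus strand, chr4:116075071-116075130) and Cox6b1 (minus strand, chr7:30626115-30626174) stretches hold 1 ETS match each. The Cox7a1 stretch (plus strand, chr7:30184111-30184170) holds neither.
Sdha: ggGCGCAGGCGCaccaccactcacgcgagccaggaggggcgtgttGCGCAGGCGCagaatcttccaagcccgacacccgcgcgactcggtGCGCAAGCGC
Atp5c1: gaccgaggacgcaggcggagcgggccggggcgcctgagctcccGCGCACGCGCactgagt
Uqcrh: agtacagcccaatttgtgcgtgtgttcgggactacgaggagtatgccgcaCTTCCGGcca
Cox6b1: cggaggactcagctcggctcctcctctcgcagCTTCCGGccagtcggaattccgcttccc
Cox7a1: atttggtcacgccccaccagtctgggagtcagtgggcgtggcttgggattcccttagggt

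Promoter windows were found in the RefSeq table for 31 of the 39 members. Each window runs over 300 bases, 250 before the start and 50 after it. The NRF1 letters were present in 10 of the 31 members (32.3%), against 5.19% of all 27025 genes with a window, a gene counting once if any of its listed starts had a match. The ETS letters were present in 12 of the 31 (38.7%), against 9.93% of all genes, and either of the 2 motifs in 18 of the 31 (58.1%), against 14.0% of all genes. Atp5h, Atp5k, Cox6a1 and Sdhd held both. The YY1 letters AAGATGG were present in 4 of the 31 (12.9%), against 7.28% of all genes, and in Atp5f1 and Cox7c they lay across the start itself. No match of one motif overlapped a match of another in a member. These counts describe letters in the windows and were set beside the expression values without a test.

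The 6 libraries held between 17941303 and 18371949 counts, and 10266 genes were tested, those whose FPKM (the deposited level, in fragments per kilobase at a common library size) averaged at least 1. All 39 members passed this filter. Counts were compared with edgeR's quasi-likelihood test after TMM scaling, with p-values adjusted over all tested genes and a threshold of 0.05. The p-values measure only the spread between these libraries. FPKM and TMM fold changes differ in scale, since the TMM factors were 1.03 in the exercise libraries and 0.972 to 0.977 in the sedentary libraries. The 8 hepatocyte markers, among them Alb and Apoa1, summed to 2066378 to 2077005 counts in the exercise libraries and 2051918 to 2103171 counts in the sedentary libraries. All 8 passed the test, 4 higher and 4 lower, with log2 fold changes between -0.12 (Serpina1a) and 0.13 (Cyp2e1). Over all tested genes, 38.1% passed.

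Of the 39 members, 15 were higher in the exercised livers, 0 were lower and 24 did not pass the test (edgeR, adjusted p threshold of 0.05). Among all tested genes, 19.1% were called higher and 19.0% lower. The 15 members make 38.46% of the set, and among the 819 tested genes averaging at least 100 FPKM, a limit chosen after the values were seen, 33.8% were called higher. Of the members, 38 lie in that range of abundance, so the share called was near that of abundant genes. Log2 fold changes were positive for 37 members, against 49.8% of all tested genes, and had a median of 0.058, against -0.0006 over all tested genes and 0.028 over the abundant ones. The changes were small. Leaving out Cox7a1, a gene of very low count, the called members rose between 1.04-fold and 1.12-fold. The median size of the log2 change was 0.11 among the called members, against 0.24 among all 3913 called genes. Against a minimum change of 1.2-fold, 0 members passed and 2.33% of all tested genes were called higher.

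**Figure D1:**
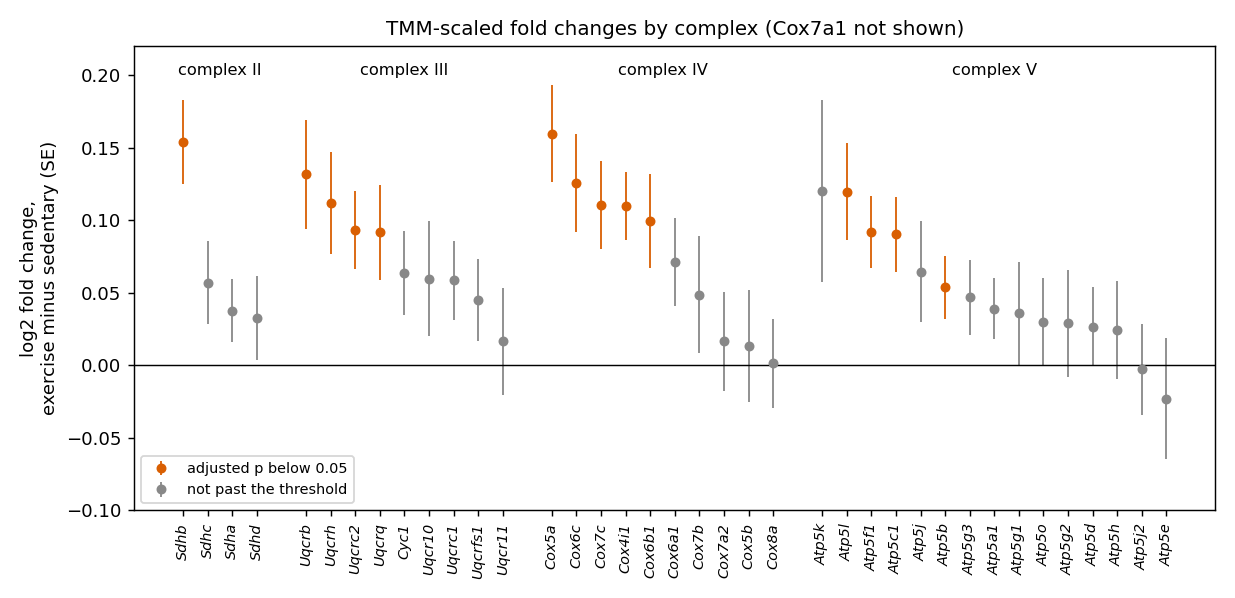
The plot shows the log2 fold change of 38 members (exercise minus sedentary, TMM-scaled counts, edgeR; bars give the SE), grouped by complex and with orange points past the adjusted p of 0.05. Cox7a1 is left out for scale, and the points lie between -0.023 (Atp5e) and 0.16 (Cox5a).

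The count of called members turned on how the libraries were scaled. Scaled to library totals without TMM factors, 37 members were called higher and 0 lower, while 34.5% of all tested genes were called higher and 46.2% were called in either direction, against 38.1% in either direction with TMM. The member median was then 0.14 and that of all tested genes 0.077. The gap between them was 0.059 under both scalings, because a change of library factors shifts every gene by nearly the same amount. Median of ratios factors gave 15 called members, with 19.2% of all tested genes called higher. Totals without the 20 most abundant genes gave 25 members, against 25.2% of all tested genes, and limma on log2(FPKM + 1) gave 28, against 27.9%. DESeq2 called 10 members higher, with 12.4% of all tested genes called higher, and did not call Uqcrh, Uqcrq, Cox6b1, Cox7a1 or Atp5b. On the deposited FPKM, 32 members had every exercise library above every sedentary library, a state seen in 36.6% of all tested genes. With TMM-scaled CPM (counts at a common library size) this held for 18 members, against 23.3% of all tested genes. In no setting was a member called lower.

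**Figure D2:**
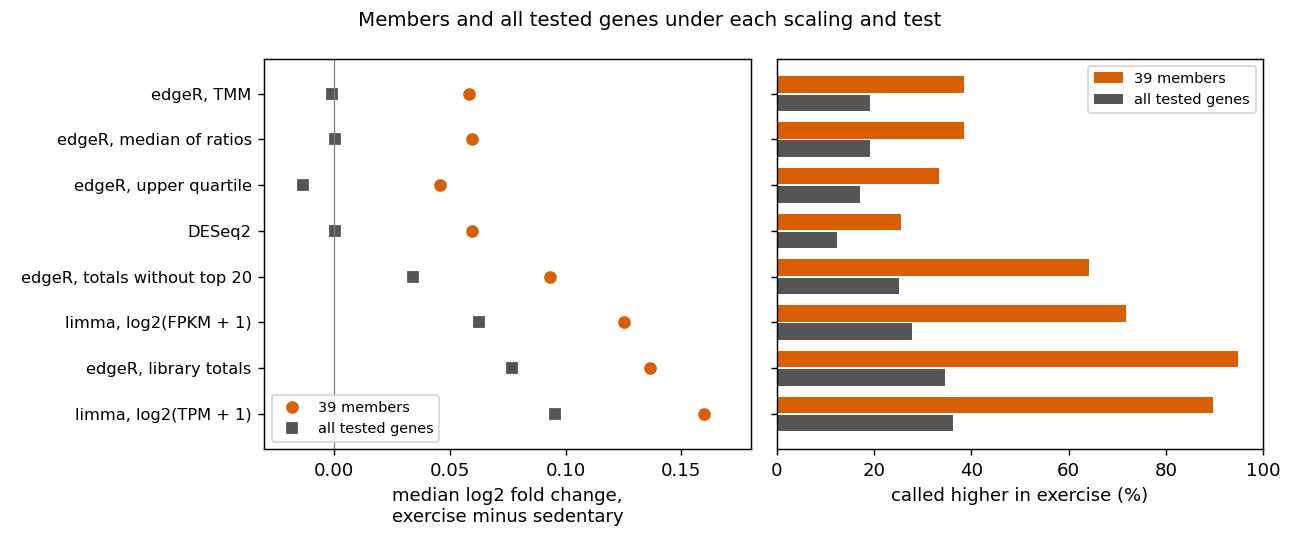
The left panel gives the median log2 fold change (exercise minus sedentary) of the 39 members in orange and of all tested genes in grey under 8 scalings and tests, and the right panel the percentage called higher in exercise. The members lie right of all genes in each row, and their share called runs between 25.64% (DESeq2) and 94.87% (library totals).

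Markers of other liver cells moved between the groups as well, where 19.1% of all tested genes were called higher and 19.0% lower. Of 7 Kupffer cell and macrophage markers, 6 were lower and 0 higher, with summed counts of 5805 to 5983 in the exercise libraries and 6986 to 7126 in the sedentary libraries. Of 5 endothelial markers, 2 were higher, with sums of 3036 to 3190 in exercise and 2554 to 2677 in sedentary libraries. Of 6 stellate and smooth muscle markers, 4 were tested and 3 were higher, with sums of 2759 to 2805 in exercise and 2175 to 2209 in sedentary libraries. Of 5 red cell markers, 4 were lower, with sums of 3116 to 3143 in exercise and 3360 to 3437 in sedentary libraries, and both tested markers of pancreatic acinar cells were lower, with sums of 107 to 121 in exercise and 236 to 242 in sedentary libraries. No library had a sum of 0 for these lists, but the acinar marker Amy2a5 averaged 0.0 FPKM with exercise and 2.45 FPKM in sedentary livers. The other tested acinar marker, Cela1, averaged 7.89 FPKM with exercise and 10.9 FPKM in sedentary livers. The part of these lists in the member values was not tested.

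Summed over its members, each complex was higher in all 3 exercise libraries than in any sedentary library. Complex II summed to 767, 745 and 763 FPKM in the exercise libraries, against 690.1, 684 and 684 FPKM in the sedentary libraries, a ratio of 1.105. Complex III summed to 2662, 2519 and 2587 FPKM with exercise, against 2404, 2335 and 2392 FPKM in sedentary livers, a ratio of 1.089. The sums of these complexes stood clear of each other between the groups. Complex IV summed to 5618, 5628 and 5616 FPKM with exercise, against 5118, 5084 and 5106 FPKM in sedentary livers, a ratio of 1.102. Complex V summed to 6865, 6510.0 and 6663 FPKM with exercise, against 6278, 6147 and 6218 FPKM in sedentary livers, a ratio of 1.075. On TMM-scaled CPM the ratios were 1.041 for complex II, 1.053 for complex III, 1.06 for complex IV and 1.035 for complex V. The sums were not tested, because their members were chosen with results known.

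**Figure D3:**
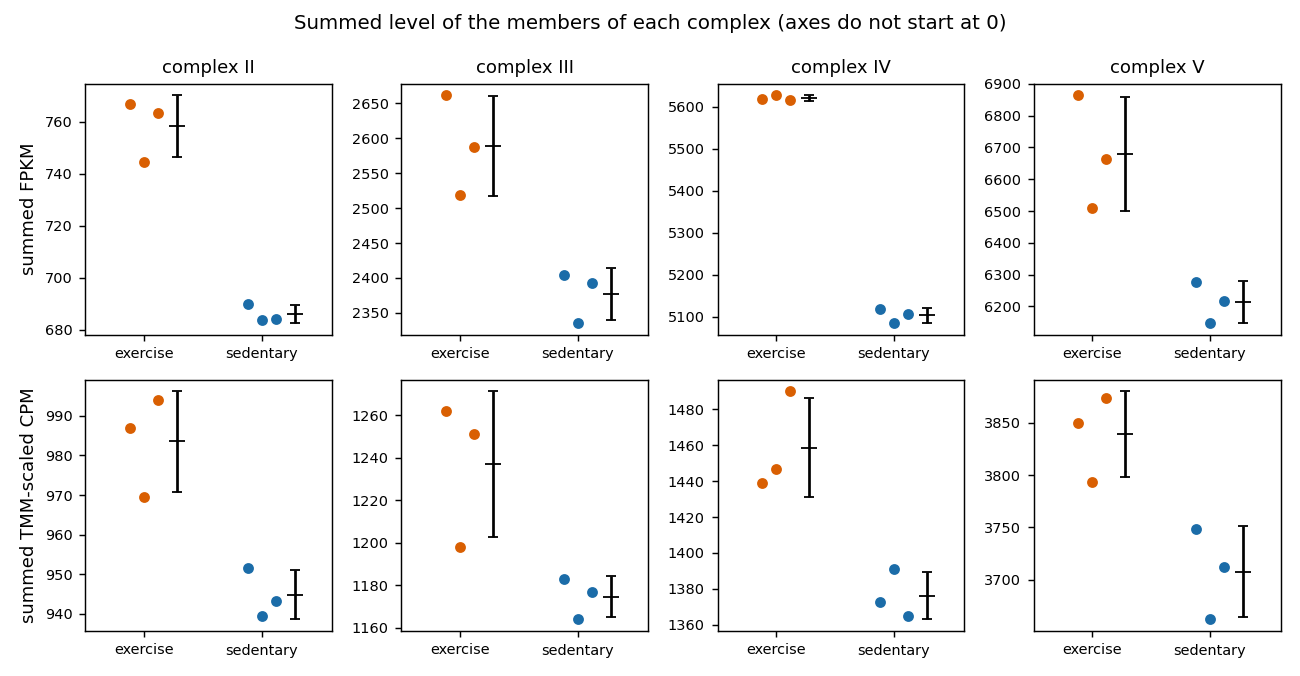
Points give the summed FPKM (top row) and the summed TMM-scaled CPM (bottom row) of the members of each complex in each library, exercise in orange and sedentary in blue, with the mean and SD as bars (n = 3 each); the vertical axes do not start at 0. In every panel the 3 exercise libraries lie above the 3 sedentary ones, and the distance shrinks in the bottom row.

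On FPKM, the proportions between the complexes moved little. A factor applied to a whole library cancels in this comparison, but the choice of unit does not. Complex II made 4.82%, 4.84% and 4.88% of the members' FPKM in the exercise libraries, against 4.76%, 4.80% and 4.75% in the sedentary libraries. Complex V made 43.1%, 42.3% and 42.6% in the exercise libraries, against 43.3%, 43.1% and 43.2% in the sedentary libraries. On FPKM, the complex II shares did not overlap between the groups and the complex V shares did. The ratio of summed levels of complex II was the highest of the complexes on FPKM (1.105). On TMM-scaled CPM it was 1.041, below complex III (1.053) and complex IV (1.06). The higher complex II share is therefore a statement about FPKM only. Complex III made 16.6% ± 0.188 with exercise and 16.5% ± 0.125 in sedentary livers, and complex IV 35.9% ± 0.620 with exercise and 35.5% ± 0.181 in sedentary livers (SD, n = 3 each). All 39 genes together took 0.7596% to 0.7803% of the counts in exercise libraries and 0.6992% to 0.7053% in sedentary libraries.

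**Figure D4:**
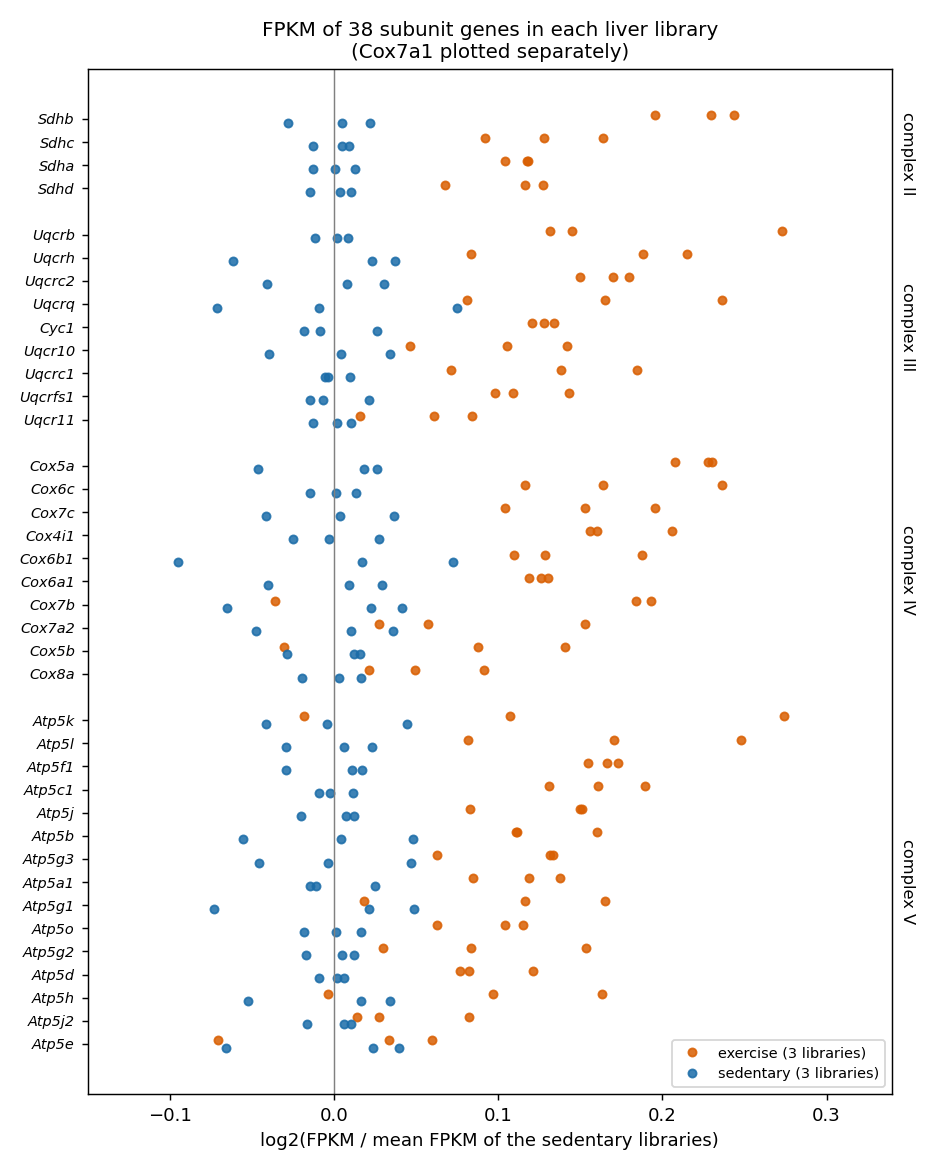
Each point is the FPKM of 1 member in 1 library, as log2 of its ratio to the mean of the sedentary libraries, with exercise in orange above sedentary in blue for each gene. The exercise points lie right of all sedentary points in 31 of the 38 genes shown, and the groups overlap in 7, where 36.6% of all tested genes stand apart this way; on TMM-scaled CPM 17 of the 38 do.

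Complex II held 1 called member of 4, Sdhb (25.0%), where 19.1% of all tested genes were called higher. Among genes averaging at least 100 FPKM the share was 33.8%. The other 3 members had positive log2 fold changes, as had 49.8% of all tested genes. Sdhb encodes the iron-sulfur subunit that carries electrons away from the succinate site (chr4:140961271-140979198). It had 212, 207 and 214 FPKM in the exercise libraries, against 183, 181 and 177 FPKM in the sedentary libraries. The groups did not overlap, and Sdhb rose 1.11-fold (log2 fold change of 0.15, SE 0.029, edgeR adjusted p = 2.77e-05). Sdha encodes the flavoprotein that oxidises succinate, and it was the most abundant member of complex II. It had 212, 209.8 and 212 FPKM in the exercise libraries, against 197, 194 and 195 FPKM in the sedentary libraries. These groups did not overlap either, but the TMM-scaled difference did not pass the test (log2 fold change of 0.038, SE 0.022, edgeR adjusted p = 0.169). The membrane anchors Sdhc and Sdhd, which hold the quinone site, stayed short of the threshold as well. Sdhc had 184, 175 and 179 FPKM in the exercise libraries, against 165, 163 and 165 FPKM in the sedentary libraries (log2 fold change of 0.057, SE 0.029, edgeR adjusted p = 0.117). Sdhd had 159.6, 153 and 158 FPKM in the exercise libraries, against 145, 146 and 147 FPKM in the sedentary libraries (log2 fold change of 0.033, SE 0.029, edgeR adjusted p = 0.396). On FPKM both anchors were higher in every exercise library, while on TMM-scaled CPM the Sdhd groups overlapped.

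In complex III, 4 of 9 members were higher (44.44%), where 19.1% of all tested genes and 33.8% of those averaging at least 100 FPKM were. All 9 had every exercise library above every sedentary one on FPKM and 5 of 9 on TMM-scaled CPM, against 36.6% and 23.3% of all tested genes. The called members were Uqcrc2, one of the core proteins that form the matrix-side body, and 3 small subunits, Uqcrb, Uqcrh and Uqcrq. Uqcrc2 (chr7:120635189-120659523) had 140.1, 137 and 139 FPKM in the exercise libraries, against 120.2, 124 and 126 FPKM in the sedentary libraries. It rose 1.07-fold with no overlap (log2 fold change of 0.093, SE 0.027, edgeR adjusted p = 0.00457). Its partner core protein Uqcrc1 had 174, 161 and 169 FPKM in the exercise libraries, against 153, 153 and 155 FPKM in the sedentary libraries. These FPKM groups did not overlap, but the difference did not pass the test (log2 fold change of 0.059, SE 0.027, edgeR adjusted p = 0.0871), and it passed without exercise replicate 2, with an edgeR adjusted p of 0.0158.

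Uqcrb, a small subunit known as a ubiquinone-binding protein (chr13:66900576-66905350), had 352, 319 and 322 FPKM in the exercise libraries, against 289, 291 and 293 FPKM in the sedentary libraries. It rose 1.10-fold (log2 fold change of 0.13, SE 0.038, edgeR adjusted p = 0.00443), and exercise replicate 1 was the highest library. Without that library its log2 fold change was 0.095 and its edgeR adjusted p 0.0678. Uqcrh, the acidic hinge protein that helps cytochrome c dock (chr4:116066965-116075070), is the member whose promoter is shown above with an ETS match beside the start. It had 519.6, 483 and 529 FPKM in the exercise libraries, against 468, 437 and 463 FPKM in the sedentary libraries. It rose 1.08-fold (log2 fold change of 0.11, SE 0.035, edgeR adjusted p = 0.00889), the groups not overlapping on FPKM but overlapping on TMM-scaled CPM. Its log2 fold change was 0.0698 without exercise replicate 3 (edgeR adjusted p = 0.135) and 0.0920 without sedentary replicate 2 (edgeR adjusted p = 0.0530). Uqcrq, a further small membrane subunit (chr11:53427922-53430831), had 153, 137 and 145 FPKM in the exercise libraries, against 136, 123 and 129 FPKM in the sedentary libraries. The lowest exercise library stood just above the highest sedentary library, and Uqcrq rose 1.07-fold (log2 fold change of 0.092, SE 0.033, edgeR adjusted p = 0.0234). It lost the call without exercise replicate 1, exercise replicate 3, sedentary replicate 2 or sedentary replicate 3, with edgeR adjusted p of 0.224, 0.0719, 0.200 and 0.0633. The count of called complex III members was 2 without exercise replicate 1, without exercise replicate 3 or without sedentary replicate 2.

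The redox subunits of complex III did not pass the test. Cyc1, the cytochrome c1 subunit, had 126, 127 and 126 FPKM in the exercise libraries, against 118, 114 and 115 FPKM in the sedentary libraries (log2 fold change of 0.064, SE 0.029, edgeR adjusted p = 0.0807). Uqcrfs1, the Rieske iron-sulfur protein, had 168, 163 and 164 FPKM in the exercise libraries, against 155, 152 and 151 FPKM in the sedentary libraries (log2 fold change of 0.045, SE 0.028, edgeR adjusted p = 0.211). For both, every exercise library lay above every sedentary library on FPKM and on TMM-scaled CPM. Uqcr11, a small accessory subunit, was the most abundant member of complex III, with 597, 569.6 and 588 FPKM in the exercise libraries, against 564, 558 and 567 FPKM in the sedentary libraries. Its groups lay close together and its log2 fold change was among the smallest of the complex (log2 fold change of 0.016, SE 0.037, edgeR adjusted p = 0.764). Uqcr10, also a small subunit, had 432, 421 and 405 FPKM in the exercise libraries, against 401, 381 and 393 FPKM in the sedentary libraries (log2 fold change of 0.059, SE 0.040, edgeR adjusted p = 0.243).

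Complex IV had 6 of 11 members called higher (54.55%), with a median log2 fold change of 0.099. Without Cox7a1 these values were 5 of 10 and 0.085. Of all tested genes, 19.1% were called higher, and 33.8% of those averaging at least 100 FPKM. Complex V had more called members under other scalings, 13 against 11 with library totals, 8 against 7 with totals without the 20 most abundant genes, and 9 against 7 with limma on FPKM. Medians were 0.047 for complex II, 0.064 for complex III and 0.039 for complex V, and the complexes share their libraries, so their order was not tested. Cox4i1, the largest nuclear-encoded subunit and a site of regulation by ATP (chr8:120668225-120674209), had 879, 849 and 852 FPKM in the exercise libraries, against 761, 749 and 777 FPKM in the sedentary libraries. It rose 1.08-fold (log2 fold change of 0.11, SE 0.024, edgeR adjusted p = 1.73e-04), and the groups did not overlap. Cox5a, a subunit on the matrix side (chr9:57517328-57532427), had 281, 277 and 281 FPKM in the exercise libraries, against 243, 244 and 232 FPKM in the sedentary libraries. It rose 1.12-fold (log2 fold change of 0.16, SE 0.033, edgeR adjusted p = 1.30e-04), again with no overlap; on this scale the change was wider than that of Sdhb, while on FPKM the ratio was 1.166 for Cox5a and 1.168 for Sdhb. Cox5b, its zinc-binding neighbour on the matrix side, had 332, 359.9 and 373 FPKM in the exercise libraries, against 342, 342 and 332 FPKM in the sedentary libraries. The Cox5b groups overlapped, with exercise replicate 1 the lowest of all 6 libraries (log2 fold change of 0.013, SE 0.039, edgeR adjusted p = 0.818).

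Among the small subunits of complex IV, Cox7c was the most abundant of all 39 members. Cox7c, a membrane-spanning subunit (chr13:86044798-86046795), had 1143, 1109.8 and 1073 FPKM in the exercise libraries, against 970.0, 1024 and 1001 FPKM in the sedentary libraries. It rose 1.08-fold with no overlap (log2 fold change of 0.11, SE 0.030, edgeR adjusted p = 0.00318). Cox6c, also membrane-spanning (chr15:35931976-35938246), had 706, 729 and 767 FPKM in the exercise libraries, against 644, 657 and 652 FPKM in the sedentary libraries. It rose 1.09-fold (log2 fold change of 0.13, SE 0.034, edgeR adjusted p = 0.00234). The highest library was exercise replicate 3, without which the log2 fold change was 0.0747 and the edgeR adjusted p 0.0767. Cox6b1, which sits on the intermembrane side where cytochrome c binds (chr7:30616971-30626114), had 806, 850.4 and 816 FPKM in the exercise libraries, against 785, 699 and 755 FPKM in the sedentary libraries. Sedentary replicate 2 was the lowest library, and Cox6b1 rose 1.07-fold (log2 fold change of 0.099, SE 0.032, edgeR adjusted p = 0.0122). Without sedentary replicate 2, exercise replicate 2 or exercise replicate 3 the edgeR adjusted p was 0.121, 0.0612 and 0.0561. Its stretch above carries an ETS match.

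The other complex IV subunits did not pass the test. Cox6a1, the form of subunit 6a known from liver, had 511, 513 and 515 FPKM in the exercise libraries, against 479.9, 457 and 473 FPKM in the sedentary libraries (log2 fold change of 0.071, SE 0.030, edgeR adjusted p = 0.0594). Its groups did not overlap. Cox8a, a small membrane subunit, had 548, 532 and 522 FPKM in the exercise libraries, against 515, 520.3 and 507 FPKM in the sedentary libraries (log2 fold change of 0.0013, SE 0.031, edgeR adjusted p = 0.979). On TMM-scaled counts this gene was level between the groups to within its SE. Cox7b, a further membrane subunit, had 143, 166 and 167 FPKM in the exercise libraries, against 139.9, 151 and 149 FPKM in the sedentary libraries (log2 fold change of 0.049, SE 0.041, edgeR adjusted p = 0.362). Its groups overlapped through exercise replicate 1, and without that library the log2 fold change was 0.13 (edgeR adjusted p = 0.00789).

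Subunit 7a comes in a form typical of heart and skeletal muscle, Cox7a1, and a form found widely, including in liver, Cox7a2. Cox7a1 (chr7:30184171-30186030) had 11.8, 4.48 and 7.75 FPKM in the exercise libraries, against 3.03, 2.16 and 3.07 FPKM in the sedentary libraries, from 16, 6 and 11 counts in the exercise libraries and 4, 3 and 4 counts in the sedentary libraries. Every exercise library was higher, and the TMM-scaled change was 2.82-fold (log2 fold change of 1.50, SE 0.49, edgeR adjusted p = 0.0127). Exercise replicate 1 was the highest library, and without it the log2 fold change was 1.14 and the edgeR adjusted p 0.120. DESeq2 gave an adjusted p of 0.0834. Cox7a2 had 258, 237 and 242 FPKM in the exercise libraries, against 234, 238 and 225 FPKM in the sedentary libraries, with overlapping groups (log2 fold change of 0.017, SE 0.034, edgeR adjusted p = 0.744). Cox7a1 thus made 4.38%, 1.86% and 3.11% of the summed FPKM of the pair in the exercise libraries and 1.28%, 0.899% and 1.35% in the sedentary libraries.

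Of 15 markers of skeletal and heart muscle, 9 were listed and none was abundant enough to be tested. Their counts summed to 8, 9 and 10 in the exercise libraries and 8, 11 and 15 in the sedentary libraries. The heart troponin Tnnt2, which held most of these counts, had 6, 6 and 9 with exercise and 4, 6 and 5 in sedentary livers. Cox6a2, the muscle form of subunit 6a, had 0, 0 and 0 counts with exercise and 1, 1 and 1 in sedentary livers. The muscle creatine kinase Ckm and myoglobin Mb had 0 counts in each exercise library, with 0, 1 and 4 (Ckm) and 1, 1 and 2 (Mb) in the sedentary libraries. Cox7a1 itself had 16, 6 and 11 counts with exercise and 4, 3 and 4 in sedentary livers. Of the brown adipocyte markers, 3 of 5 were listed, with sums of 5388 to 5451 counts in exercise and 4767 to 4892 in sedentary libraries. Ucp1 and Cox8b were not listed, and Cidea averaged below 1 FPKM and was not tested. Of the 2 tested, Elovl3 was higher, averaging 186 FPKM with exercise and 164 FPKM in sedentary livers. Ppargc1a averaged 1.07 FPKM with exercise and 0.95 FPKM in sedentary livers and did not pass the test (edgeR adjusted p = 0.559). The sums thus mostly reflect Elovl3 and not the list as a whole. The part of either list in the Cox7a1 values was not tested.

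**Figure D5:**
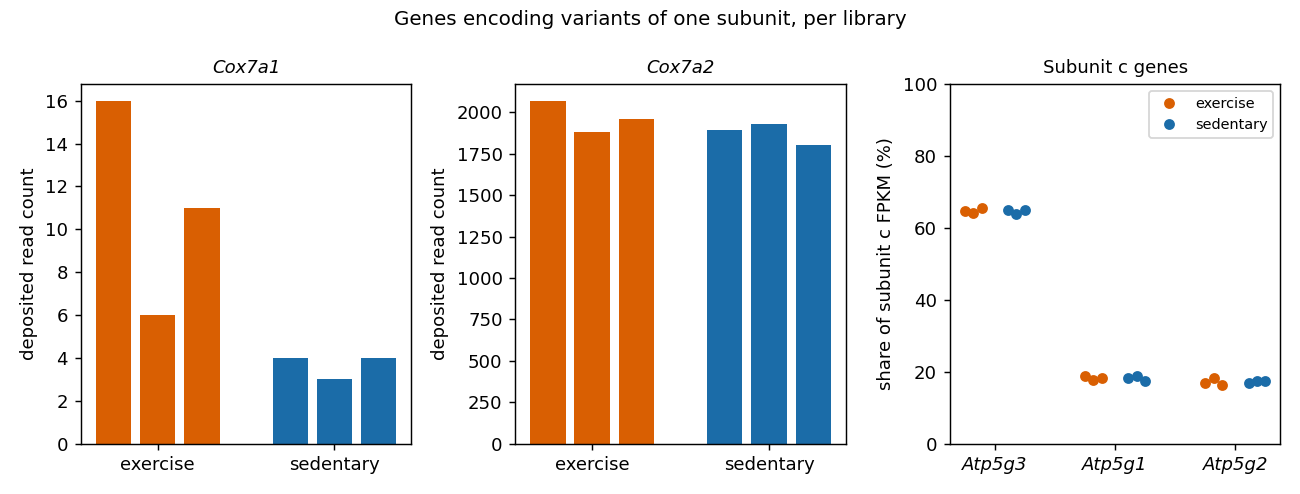
The left and middle panels show the deposited read count of Cox7a1 and Cox7a2 in each library, and the right panel the share of summed subunit c FPKM from each of 3 genes, exercise in orange left of sedentary in blue. Cox7a1 reaches 16 counts at most, and the shares of the subunit c genes overlap between the groups.

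In complex V, 4 of 15 members were higher (26.67%) and 11 did not pass the test. Called higher were 19.1% of all tested genes and 33.8% of those averaging at least 100 FPKM. In the catalytic head, Atp5b encodes the beta subunit, which carries the site of ATP synthesis (chr10:128083307-128090388). It had 707, 683 and 684 FPKM in the exercise libraries, against 654, 609 and 635 FPKM in the sedentary libraries. It rose 1.04-fold (log2 fold change of 0.054, SE 0.022, edgeR adjusted p = 0.0453), with groups that did not overlap on FPKM but did on TMM-scaled CPM. The call was lost without exercise replicate 1 (edgeR adjusted p = 0.176), exercise replicate 3 (0.0571), sedentary replicate 2 (0.389) or sedentary replicate 3 (0.0866), and without sedentary replicate 2 the log2 fold change was 0.0265. Atp5a1, the alpha subunit that alternates with beta in the head, had 441, 452 and 457 FPKM in the exercise libraries, against 412, 413 and 423 FPKM in the sedentary libraries. Its FPKM groups did not overlap, and the difference did not pass the test (log2 fold change of 0.039, SE 0.021, edgeR adjusted p = 0.137), except without exercise replicate 1 (edgeR adjusted p = 0.0383).

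Atp5c1 encodes the gamma subunit, the shaft that turns inside the head (chr2:10056030-10080510). It had 262, 267 and 257 FPKM in the exercise libraries, against 236, 233 and 234 FPKM in the sedentary libraries. It rose 1.06-fold with no overlap (log2 fold change of 0.090, SE 0.026, edgeR adjusted p = 0.00501). The NRF1 letters were in 1 of the 10 called members with a promoter window, namely Atp5c1, and in 9 of the 21 others with a window. The ETS letters were in 4 of these 10 and 8 of these 21, and neither difference was tested. Its companions at the foot of the shaft, Atp5d (delta) and Atp5e (epsilon), did not pass the test. Atp5d had 296, 288 and 287 FPKM in the exercise libraries, against 272, 273 and 270.1 FPKM in the sedentary libraries (log2 fold change of 0.026, SE 0.027, edgeR adjusted p = 0.474). Atp5e had 549.9, 511 and 559.8 FPKM in the exercise libraries, against 552, 513 and 546 FPKM in the sedentary libraries (log2 fold change of -0.023, SE 0.042, edgeR adjusted p = 0.702). Its groups overlapped, and its negative fold change turned positive on FPKM and on library totals.

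In the peripheral stalk, which keeps the head from turning, Atp5f1 (subunit b, chr3:105942698-105959263) had 204, 207 and 206 FPKM in the exercise libraries, against 179.7, 185 and 185 FPKM in the sedentary libraries. It rose 1.07-fold with no overlap (log2 fold change of 0.092, SE 0.025, edgeR adjusted p = 0.0029). Atp5o, known as OSCP, which joins stalk and head, had 287, 277 and 285 FPKM in the exercise libraries, against 262, 265 and 268 FPKM in the sedentary libraries (log2 fold change of 0.030, SE 0.030, edgeR adjusted p = 0.467). Atp5j, coupling factor 6, had 276, 289 and 289 FPKM in the exercise libraries, against 263, 262 and 257 FPKM in the sedentary libraries (log2 fold change of 0.065, SE 0.035, edgeR adjusted p = 0.141). Both had every exercise library above every sedentary one on FPKM but not on TMM-scaled CPM. Atp5h (subunit d) had 468, 447 and 417 FPKM in the exercise libraries, against 428, 423 and 403 FPKM in the sedentary libraries, with overlapping groups (log2 fold change of 0.024, SE 0.034, edgeR adjusted p = 0.604).

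The membrane subunits e, f and g help the synthase form dimers at the folds of the inner membrane. Atp5l (subunit g, chr9:44913248-44920742) had 691, 616 and 655 FPKM in the exercise libraries, against 585, 570.5 and 592 FPKM in the sedentary libraries. It rose 1.09-fold (log2 fold change of 0.12, SE 0.033, edgeR adjusted p = 0.00354), with exercise replicate 1 the highest library. Without that library the log2 fold change was 0.0886 and the edgeR adjusted p 0.0592. Atp5k (subunit e) had 688, 562 and 613 FPKM in the exercise libraries, against 553, 586 and 567 FPKM in the sedentary libraries. Its fold change was as large as that of Atp5l, but exercise replicate 2 lay inside the sedentary range and the test was not passed (log2 fold change of 0.12, SE 0.063, edgeR adjusted p = 0.13). Without exercise replicate 2 or sedentary replicate 2 the edgeR adjusted p was 0.0156 and 0.0275. Atp5j2 (subunit f) had 689, 657 and 663 FPKM in the exercise libraries, against 654, 644 and 656 FPKM in the sedentary libraries, level between the groups after TMM scaling (log2 fold change of -0.0029, SE 0.032, edgeR adjusted p = 0.953) and above 0 on FPKM and on library totals.

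Subunit c, which forms the rotating ring, is encoded by 3 genes whose products differ in the import sequence and are the same once mature. Stretches of 60 bases from the part that encodes the mature protein are shown because reads from the 3 genes could be mistaken for one another. They are from GENCODE M21 transcripts on GRCm38, and capitals mark bases that differ from both other genes. Atp5g1 is at chr11:96073576-96073635, Atp5g2 at chr15:102665107-102665166 and Atp5g3 at chr2:73909237-73909296, all on the minus strand.
Atp5g1: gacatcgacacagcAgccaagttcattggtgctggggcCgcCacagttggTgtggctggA
Atp5g2: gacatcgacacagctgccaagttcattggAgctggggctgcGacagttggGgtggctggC
Atp5g3: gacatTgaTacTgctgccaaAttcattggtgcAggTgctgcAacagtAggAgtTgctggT

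Over the last 225 coding bases, Atp5g1 and Atp5g2 were 84.9% identical, Atp5g1 and Atp5g3 80.0% and Atp5g2 and Atp5g3 78.7%. The longest run shared within the coding sequence was 21 bases, against reads of 150 bases. Atp5g3 was the most abundant member of complex V, with 844, 804 and 845 FPKM in the exercise libraries, against 796, 746 and 768 FPKM in the sedentary libraries. The lowest exercise library stood just above the highest sedentary one, and the test was not passed (log2 fold change of 0.047, SE 0.026, edgeR adjusted p = 0.154). It was passed without exercise replicate 2 (edgeR adjusted p = 0.0364) or sedentary replicate 1 (0.0417). Atp5g1 had 244, 220.2 and 236 FPKM in the exercise libraries, against 225, 221 and 207 FPKM in the sedentary libraries (log2 fold change of 0.036, SE 0.035, edgeR adjusted p = 0.452). Atp5g2 had 218, 229 and 210.3 FPKM in the exercise libraries, against 208, 204 and 207 FPKM in the sedentary libraries (log2 fold change of 0.029, SE 0.037, edgeR adjusted p = 0.573). Neither stood apart from its SE, and the Atp5g1 groups overlapped. Atp5g3 gave 64.7% ± 0.654 of subunit c FPKM with exercise and 64.5% ± 0.669 in sedentary livers, a difference within the spread between libraries (SD, n = 3 each). Atp5g1 gave 18.2% ± 0.556 with exercise and 18.2% ± 0.683 in sedentary livers, and Atp5g2 17.1% ± 1.04 with exercise and 17.3% ± 0.310 in sedentary livers. The mix of the 3 genes was thus close in both groups.

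Most tested genes in the lists around the chain did not pass the test, and 38.1% of all tested genes did, 19.1% higher and 19.0% lower. Of 15 other subunits and isoforms of complexes II to V, 11 were listed, 8 were tested, 2 were higher and 0 lower, with a median log2 fold change of 0.015. The higher ones were Atp5md, a small membrane subunit of complex V (log2 fold change of 0.18, edgeR adjusted p = 0.00218), and Ndufa4, now counted as a complex IV subunit (0.085, edgeR adjusted p = 0.0161). Of 38 tested assembly factors, 4 were higher and 5 lower, with a median of 0.0044. Sco2, which delivers copper to complex IV, rose (0.26, edgeR adjusted p = 0.00205), as did Ttc19, a factor of complex III (0.22, edgeR adjusted p = 0.00454). Coa6, also of the copper route, fell by 0.41 on the log2 scale (edgeR adjusted p = 0.000101), and Taco1, which activates translation of a complex IV subunit, fell by 0.29 (edgeR adjusted p = 0.000685).

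Complex I, the entry point for electrons from NADH, had 8 of 36 tested nuclear subunits higher and 1 lower, with a median of 0.047. The count called higher was near the 19.1% of all tested genes. It was below the 33.8% of genes averaging at least 100 FPKM, a range that held most of these subunits. The smallest adjusted p belonged to Ndufb4, Ndufa12, Ndufa6 and Ndufv3, all higher, with log2 fold changes of 0.26, 0.21, 0.15 and 0.16. Among 18 tested carriers and regulators of respiration, 1 was higher and 2 lower, with a median of 0.025. Yy1, whose letters were searched for above, rose by 0.26 on the log2 scale (edgeR adjusted p = 2.52e-07), while Ucp2, an uncoupling protein, fell by 0.39 (edgeR adjusted p = 7.14e-06) and the nuclear receptor Esrra by 0.215 (edgeR adjusted p = 0.00294). Of 17 genes that bring coenzyme Q, heme or other electrons to the chain, 4 were higher and 3 lower, with a median of -0.047. Coq8a, which supports coenzyme Q synthesis, and Etfa and Etfdh, which carry electrons from fat oxidation, were higher by 0.23, 0.16 and 0.15 (edgeR adjusted p of 6.65e-11, 1.78e-06 and 3.61e-06), and Coq9, a lipid-binding protein of coenzyme Q synthesis, fell by 0.13 (edgeR adjusted p = 0.00412).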

How the data were processed

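Liver RNA of exercised and sedentary mice, 3 libraries in each group, was read on a DNBseq instrument with paired reads of 150 bases, per the labels. The submitters' processing notes name cutadapt, featureCounts, MultiQC and build GRCm38.p6. The aligner, annotation, strand use and tool versions are not given there. Per the file headers, the deposited table gave each gene a read count, an FPKM and a TPM in each library. The deposited counts are estimated counts, not normalized by the authors: values were fractional for 1165 of 16123 genes, Cox7a2 the only member among them. They were rounded. The 6 columns of averages were not used.

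The 10266 genes averaging at least 1 FPKM were tested with edgeR 4.0.16 in R 4.3.3, using TMM factors, the quasi-likelihood F test, 2 groups with no covariate, and Benjamini-Hochberg adjustment over these genes. SEs were obtained from each fold change and the root of its F. Alternatives used limma 3.58.1 and DESeq2 1.42.0. The edgeR step was tested on simulated data. Replicates within a group differed by only slightly more than counting noise, and all were kept. Counting noise alone gives a mean chi-square per gene of about 1. Over genes with 20 to 2000 reads in a pair of libraries, it was 1.131 to 1.21 within a group. Between the groups it was 4.51 to 4.809. The members, gene lists and named genes were chosen with earlier results of these data known. Named in full were the called members, the most abundant of each complex, paralogs, and members whose call changed in an alternative, and up to 4 genes of a list by smallest adjusted p. Gene coordinates are those of the RefSeq table of GRCm38.p6, in which 16080 of 16123 genes were found.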

Additional observations from a re-analysis of the deposited data

How the results depend on the processing

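No setting called a member lower, and the count called higher depended on scaling. Called higher, with the share of all tested genes in brackets, were 37 members with library totals (34.5%), 25 with totals without the 20 most abundant genes (25.2%), 28 with limma on log2(FPKM + 1) (27.9%) or log2(FPKM + 0.1) (27.8%) and 35 on log2(TPM + 1) (36.2%). They were 15 with median of ratios factors (19.2%) or no filter (12.3%), 14 with a mean FPKM of at least 5 (22.2%), 13 with upper quartile factors (17.1%), 10 with DESeq2 (12.4%) and 0 against a 1.2-fold change (2.33%). Their median log2 fold change ran to 0.136 with library totals, 0.0933 without the 20 most abundant genes, 0.125 and 0.126 with limma on FPKM and 0.160 with limma on TPM. By complex, in the order II, III, IV and V, called members were 4, 9, 11 and 13 with library totals, 4, 9, 9 and 13 with limma on TPM, and 0, 0, 0 and 0 against a 1.2-fold change. In the same order, totals without the 20 most abundant genes gave 3, 7, 7 and 8, limma on FPKM 4, 8, 7 and 9 with either pseudocount, and DESeq2 1, 2, 4 and 3. Ratios of summed levels were, in that order, 1.132, 1.116, 1.128 and 1.101 on TPM and 1.041, 1.053, 1.06 and 1.035 on TMM-scaled CPM.

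Leaving out 1 library at a time gave 10 to 17 called members and 2 to 5 in complex III. Of all tested genes, 16.7% to 17.2% were called higher in these fits. Of the 15 called members, 7 passed in all 6 fits (Sdhb, Uqcrc2, Cox4i1, Cox5a, Cox7c, Atp5c1 and Atp5f1). Among members not called, log2 fold changes spanned 0 in these fits for Uqcr11 (-0.0090 to 0.0459), Cox5b (-0.0392 to 0.0690), Cox7a2 (-0.0141 to 0.0449), Cox8a (-0.0159 to 0.0204), Atp5e (-0.0734 to 0.0264), Atp5g1 (-0.0019 to 0.0784), Atp5h (-0.0086 to 0.0561) and Atp5j2 (-0.0146 to 0.0200). Cox8a was also -0.0113 with upper quartile factors and -0.0052 with a mean FPKM of at least 5. Atp5e was 0.0547 with library totals, 0.0117 without the 20 most abundant genes, 0.0082 and 0.0083 with limma on FPKM and 0.0428 on TPM. Atp5j2 was 0.0748, 0.0318, 0.0412 (both pseudocounts) and 0.0757 under the same settings and 0.0058 with no filter. The cause was not tested.

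Replicate numbers did not pair the libraries. Correlations of deviations between same-numbered libraries were -0.026, -0.006 and -0.009, and no exercise library correlated best with its own number. With the replicate number as a block, 15 members were called higher and 0 lower, and 18.8% of all tested genes were called higher. They were the same 15, the median of all members was 0.0581, and no other member's call changed.

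With 3 libraries a group, changes as small as those of most members are at the edge of what the test can call, and library totals in place of TMM move the median of members and of all genes alike, leaving the gap of 0.059 between them. Reads shared with pseudogenes of these short, abundant genes could not be checked in the deposited counts. For Cox7a1, 16 counts at most set the precision.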

Other observations

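FPKM and read count did not always move by the same factor, most of all for the members with the shortest transcripts. The length implied by a member's count, its FPKM and the library total was 43.7 bases in exercise and 41.5 bases in sedentary libraries for Atp5k, whose FPKM ratio (exercise over sedentary) was 1.09 and whose count ratio was 1.13. For Sdha, the longest member by this measure, the implied lengths were 2550.0 bases in exercise and 2546 bases in sedentary libraries, with an FPKM ratio of 1.08 and a count ratio of 1.07. Fold changes of the shortest members therefore depended on the unit as well as on the scaling.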
